A study of Homo sapiens with 12 samples.

Results

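The 41 genes described here encode proteins of the DNA damage checkpoint and of DNA repair. They were taken by gene symbol from a list made for this description, by a rule that sets no threshold on measured values but with earlier results of these data known, and all 41 were found among the 60707 genes counted. By role they are 6 checkpoint kinases and partners, 2 checkpoint mediators, 6 genes of break sensing and resection, 10 of homologous recombination, 9 of the Fanconi anaemia pathway, 6 of end joining and 2 of mismatch repair. The RNA came from Raji, a line established from a human Burkitt lymphoma with germinal centre features, in which an auxin-inducible degron acts on SMARCA4, an ATPase that drives SWI/SNF chromatin remodelling. The 12 libraries formed 4 groups of 3, all collected at 24 h: GFP-low cells given FX1, GFP-low cells given the vehicle DMSO, GFP-high cells given FX1, and GFP-high cells given DMSO. FX1 is a small-molecule inhibitor of BCL6, the transcriptional repressor of the germinal centre programme. The labels give the genotype Smarca4+/+ for all 12 libraries, do not say which cells received auxin and do not tie the GFP gate to the amount of SMARCA4 protein, so the groups are called by gate and treatment.

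Stalled replication forks activate the kinase ATR with its partner ATRIP, and ATR activates CHEK1. Double-strand breaks are sensed by the MRE11, RAD50 and NBN complex, which activates ATM and through it CHEK2. Breaks are then joined directly by the end-joining factors, or resected and repaired by homologous recombination, while the Fanconi anaemia proteins act on crosslinked DNA and mismatch repair on replication errors. In germinal centre B cells, where antibody genes are cut and mutated, BCL6 is known to repress ATR and CHEK1, among other genes of the damage response.

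The promoters shown are those of ATR and CHEK1, of FANCD2 and XRCC4, which had the lowest mean FX1 effects over both gates, and of NHEJ1 and RAD51D, which had the highest. Each runs from 250 bases before to 50 bases after the first start listed by RefSeq on GRCh38.p14, 5′ to 3′ on the gene's strand, and capitals mark E2F and CCAAT matches. Of these genes, CHEK1 has 3 listed starts and NHEJ1 and RAD51D have 2 each, and starts after the first listed were not searched for any gene. The CHEK1 and RAD51D windows lie inside the genes as counted, so starts farther upstream are not covered. Promoters were found for 36 of the 41 members. The windows are chr3:142578684-142578983 (minus strand) for ATR, chr11:125625979-125626278 (plus) for CHEK1, chr3:10026187-10026486 (plus) for FANCD2, chr5:83077297-83077596 (plus) for XRCC4, chr2:219160766-219161065 (minus) for NHEJ1 and chr17:35119709-35120008 (minus) for RAD51D.
ATR: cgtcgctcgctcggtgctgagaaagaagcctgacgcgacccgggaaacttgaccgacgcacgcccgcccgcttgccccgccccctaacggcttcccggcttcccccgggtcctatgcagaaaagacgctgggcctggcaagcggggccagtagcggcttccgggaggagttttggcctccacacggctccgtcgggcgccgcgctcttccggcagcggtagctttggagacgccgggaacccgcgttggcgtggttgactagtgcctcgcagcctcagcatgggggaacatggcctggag
CHEK1: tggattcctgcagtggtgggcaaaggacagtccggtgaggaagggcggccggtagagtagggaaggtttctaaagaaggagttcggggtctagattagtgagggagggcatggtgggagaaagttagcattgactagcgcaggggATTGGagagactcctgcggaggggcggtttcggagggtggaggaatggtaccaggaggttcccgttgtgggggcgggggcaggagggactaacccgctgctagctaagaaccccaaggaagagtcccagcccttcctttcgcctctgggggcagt
FANCD2: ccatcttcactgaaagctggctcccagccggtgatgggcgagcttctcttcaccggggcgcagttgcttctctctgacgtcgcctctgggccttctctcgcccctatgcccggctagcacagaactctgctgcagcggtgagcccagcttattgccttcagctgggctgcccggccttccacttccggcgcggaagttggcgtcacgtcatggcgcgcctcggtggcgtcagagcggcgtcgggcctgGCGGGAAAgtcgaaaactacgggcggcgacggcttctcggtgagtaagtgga
XRCC4: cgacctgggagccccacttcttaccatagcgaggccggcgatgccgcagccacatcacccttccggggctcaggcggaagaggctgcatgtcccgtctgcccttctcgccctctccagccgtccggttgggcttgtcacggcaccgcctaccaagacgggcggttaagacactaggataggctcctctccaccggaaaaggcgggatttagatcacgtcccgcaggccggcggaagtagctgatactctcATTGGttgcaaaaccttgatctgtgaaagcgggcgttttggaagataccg
NHEJ1: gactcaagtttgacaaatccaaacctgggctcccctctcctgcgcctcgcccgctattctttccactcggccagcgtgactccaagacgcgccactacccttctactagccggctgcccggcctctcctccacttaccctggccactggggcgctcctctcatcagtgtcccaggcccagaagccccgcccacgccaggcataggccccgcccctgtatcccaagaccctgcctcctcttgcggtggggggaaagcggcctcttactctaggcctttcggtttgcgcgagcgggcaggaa
RAD51D: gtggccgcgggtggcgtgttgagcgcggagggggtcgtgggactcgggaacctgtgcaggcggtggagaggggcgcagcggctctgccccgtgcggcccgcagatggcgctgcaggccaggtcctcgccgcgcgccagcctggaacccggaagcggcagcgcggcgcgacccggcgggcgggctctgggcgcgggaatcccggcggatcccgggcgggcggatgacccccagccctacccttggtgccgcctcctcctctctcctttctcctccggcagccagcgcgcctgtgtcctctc
An E2F match (TTTCCCGC, TTTCGCGC, TTTGCCGC or TTTGGCGC on either strand) was present in 8 of the 36 member promoters (22.2%), against 3.33% of the 27305 promoters listed, and in 7 of the 24 with a promoter among the members that were lower with FX1 in both gates. The 8 genes were EXO1, FANCA, FANCC, FANCD2, MSH6, PMS2, XRCC2 and XRCC6. CCAAT on either strand was present in 18 of 36 (50%), against 35.7% of all promoters. The cell cycle element CHR, searched as TTTGAA and TTCGAA, was present in 3 of 36 (8.33%), against 16.6%. A strict BCL6 sequence, TTCCTAGAA, was in 0 of 36 member promoters and in 0.403% of all promoters, and the looser palindrome TTCNNNGAA, which contains it, was in 3 of 36 (FANCD2, FANCM and RBBP8), against 7.88%. A match is a description of the letters in this window, and no test was made on these shares.

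The libraries held 20454028 to 42556661 gene counts, and every member had at least 144 counts in each library. SMARCA4 RNA averaged 456 ± 4.04 CPM in GFP-low FX1 and 395 ± 4.99 in GFP-low DMSO, and 388 ± 2.54 in GFP-high FX1 and 381 ± 3.77 in GFP-high DMSO (SD, n = 3 each), where CPM are counts scaled to library size with TMM factors. The degron acts on protein, so the RNA does not show whether SMARCA4 was lost in either gate. BCL6 RNA averaged 218 ± 7.52 CPM in GFP-low FX1 and 339 ± 8.87 in GFP-low DMSO, and 199 ± 3.63 in GFP-high FX1 and 400 ± 1.07 in GFP-high DMSO. All 10 B cell and 8 germinal centre B cell markers passed the filter on low counts, and no gene of either list was at 0 in all libraries. The 11 T and NK cell markers summed to 5.14 to 27.0 CPM, with CD8A at 0 counts in every library, the 8 myeloid markers to 2.00 to 6.46 CPM, with S100A8 at 0, and the 8 epithelial and stromal markers to 9.04 to 18.0 CPM, with KRT18 at 0. Mitochondrial genes took 5.05% to 5.13% of counts in GFP-low FX1, 4.72% to 4.84% in GFP-low DMSO, and between 4.23% and 4.32% in GFP-high FX1 and 7.84% and 7.91% in GFP-high DMSO. Separate cultures are not stated for the 3 libraries of a group, so p-values rest on a spread between libraries that may be technical.

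The members differed widely in level. Divided by exon length, the median member stood at 9.32 CPM per kb averaged over the 12 libraries, 19 members were above 10 CPM per kb and 9 were below 5. The highest were the end-joining genes PRKDC, the catalytic subunit of DNA-dependent protein kinase, at 166 CPM per kb, and XRCC6 and XRCC5, the subunits of the Ku heterodimer that binds broken ends, at 126 and 87.6 CPM per kb. MSH6, a mismatch recognition subunit, followed at 33.6 CPM per kb and NBN at 30.1. The lowest were NHEJ1, a scaffold of the ligation step of end joining, at 1.15 CPM per kb, the Fanconi core complex gene FANCC at 1.52 and RAD50 at 1.71. The RAD50 level is uncertain, because 76.9% of its exon bases overlap a readthrough gene on the same strand, which itself averaged only 0.0833 counts. End joining held both the highest and the lowest member per length. The length is that of all exons combined, 9069 bases for NHEJ1 and 12809 for FANCC, so these ranks depend on the annotation.

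With FX1 most of the 41 genes were lower in both gates. In GFP-low cells 29 of 41 were lower and 3 higher by edgeR's quasi-likelihood test (Benjamini-Hochberg adjusted p under 0.05 over 17859 genes), against 34.3% lower and 33.7% higher among all genes tested, and 9 did not pass. In GFP-high cells 33 were lower and 3 higher, against 34.6% and 33.8% of all genes, and 5 did not pass. The median log2 change of the 41 was -0.26 in GFP-low cells and -0.34 in GFP-high cells, where the median of all genes was -0.0056 and -0.0086. The same 29 members were lower in both gates, and NHEJ1 and RAD51D were higher in both. The shares of all genes lower or higher in both gates were not counted. In every setting tried but the fold floor, 29 members were lower with FX1 in GFP-low cells and 28 in GFP-high cells. RAD50, TP53BP1, XRCC3 and XRCC6 were lower in GFP-high cells and did not pass in GFP-low cells, FANCF was higher in GFP-high cells alone and ATRIP in GFP-low cells alone, and ATR, FANCL, LIG4 and PALB2 passed in neither. Tested against a floor of 1.5-fold, 10 members passed in GFP-low cells (20.2% of all genes, in either direction) and 9 in GFP-high cells (20.6%), and each of these members was lower with FX1. Of all 17859 genes, 1966 were lower and 1640 higher past the floor in GFP-low cells, and 2220 lower and 1454 higher in GFP-high cells. The FX1 and DMSO libraries did not overlap in CPM for 34 members in GFP-low cells (69.6% of all genes) and for 36 in GFP-high cells (70.2%). Leaving out GFP-high DMSO replicate 1, 2 or 3, which enter the GFP-low comparison through the scaling of libraries, moved the median of all genes there by -0.0455, -0.0455 and -0.0449 and gave 36 members lower each time, adding ATR, FANCL, PALB2, RAD50, TP53BP1, XRCC3 and XRCC6. Of all genes 12264, 12237 and 12293 were then called in either direction, against 12138 with all libraries, and the shares by direction were not counted. Summed over the 41 genes, the level was 5607 to 5654 CPM in GFP-low FX1 and 7354 to 7458 CPM in GFP-low DMSO, and 6366 to 6389 CPM in GFP-high FX1 and 8282 to 8312 CPM in GFP-high DMSO. A sum over bulk RNA cannot tell less RNA per cell from fewer cells of a kind, such as cells in S phase.

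**Figure D1:**
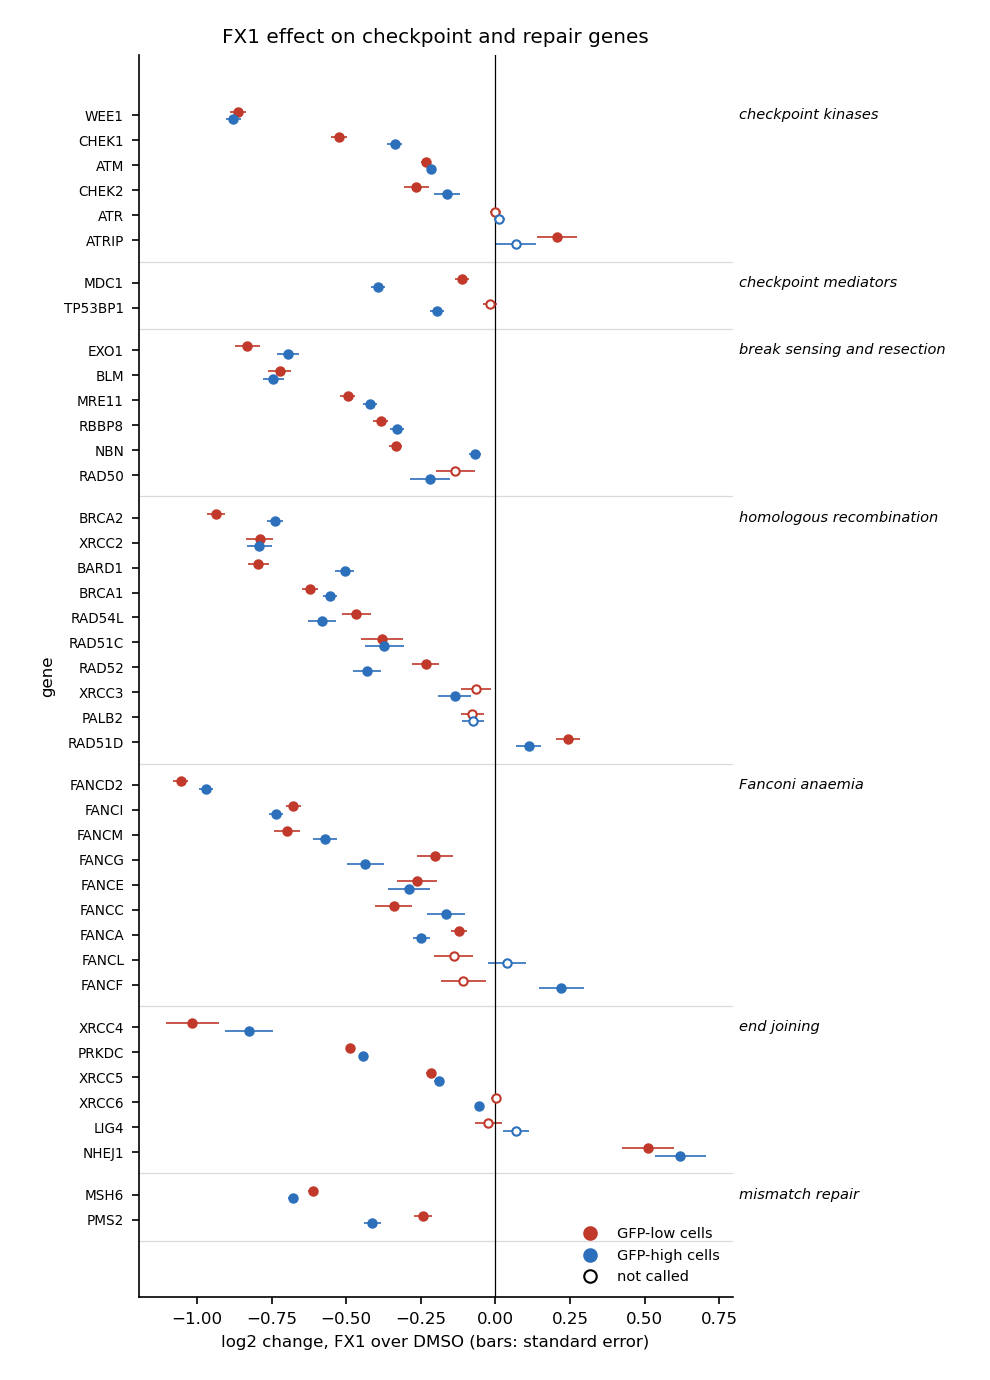
Log2 change with FX1 over DMSO (x axis) for each of the 41 genes (rows, grouped by role), with points for GFP-low and GFP-high cells and bars for the standard error. FANCD2 lies farthest to the left in both gates, at -1.05 and -0.97, NHEJ1 farthest to the right, at 0.51 and 0.62, and ATR on the zero line.

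Of the known BCL6-repressed pair among the checkpoint kinases, CHEK1 fell with FX1 in both gates and ATR did not pass the test in either. ATR (chromosome 3, 142449007 to 142578733, minus strand) stood at 241, 234 and 234 CPM in GFP-low FX1 libraries, against 236, 236 and 238 in GFP-low DMSO libraries. In GFP-high cells it stood at 251, 248 and 244 CPM with FX1, against 244, 242 and 250 with DMSO. The groups overlapped in both gates, and the edgeR log2 changes of 0.00 ± 0.018 (SE, adjusted p = 1.0) and 0.01 ± 0.018 (adjusted p = 0.55) did not pass. Once the dependence on GC content and transcript length was taken out, ATR was higher by 0.12 in GFP-low cells, and without GFP-high DMSO replicate 1, 2 or 3 it was lower there, at -0.05, -0.05 and -0.04. CHEK1 (chromosome 11, 125625163 to 125676255, plus strand), the effector kinase that ATR activates, stood at 77.7, 77.6 and 75.5 CPM in GFP-low FX1 libraries, against 110, 109 and 114 in GFP-low DMSO libraries. In GFP-high cells it stood at 114, 114 and 121 CPM with FX1, against 145, 145 and 150 with DMSO. All FX1 libraries were below all DMSO libraries of their gate, and CHEK1 fell by 0.52 ± 0.028 (adjusted p = 1.7e-47) and by 0.34 ± 0.026 (adjusted p = 2.8e-29) on the log2 scale.

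Of the other 4 genes of the checkpoint kinase group, WEE1, ATM and CHEK2 were lower with FX1 in both gates and ATRIP was higher in GFP-low cells. WEE1, which holds mitotic entry back by phosphorylating the cyclin-dependent kinase CDK1, stood at 77.4, 79.4 and 76.9 CPM in GFP-low FX1 libraries, against 138, 143 and 144 in GFP-low DMSO libraries. In GFP-high cells WEE1 stood at 89.4, 85.7 and 87.6 CPM with FX1, against 162, 160 and 162 with DMSO. The groups were far apart, at log2 changes of -0.86 ± 0.027 and -0.88 ± 0.026, the largest falls of the kinases, and both passed the 1.5-fold floor. ATM, the kinase of the break response, changed by -0.23 ± 0.014 in GFP-low and -0.21 ± 0.014 in GFP-high cells, and its effector CHEK2 by -0.26 ± 0.042 and -0.16 ± 0.043. ATRIP was higher in GFP-low cells alone, at 0.21 ± 0.067 (adjusted p = 0.004), against 0.07 ± 0.067 in GFP-high cells (adjusted p = 0.36). ATRIP shares 26.7% of its exon bases with TREX1, for which the table holds 0 counts, and with the GC and length trend removed its change in GFP-low cells was -0.11 and did not pass.

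The mediators MDC1 and TP53BP1, which gather repair factors on chromatin next to a break, were lower with FX1 in GFP-high cells. MDC1 stood at 132, 132 and 131 CPM with FX1 in GFP-high cells, against 177, 173 and 169 with DMSO. In GFP-low cells MDC1 stood at 128, 131 and 128 CPM with FX1, against 138, 138 and 142 with DMSO. The FX1 levels were close between the gates, and the log2 change was -0.11 ± 0.024 in GFP-low and -0.39 ± 0.023 in GFP-high cells. TP53BP1 stood at 139, 140 and 138 CPM with FX1 in GFP-low cells, against 138, 140 and 145 with DMSO. In GFP-high cells it stood at 127, 131 and 128 CPM with FX1, against 146, 147 and 149 with DMSO. TP53BP1 overlapped between treatments in GFP-low cells (-0.02 ± 0.024, adjusted p = 0.54) and did not in GFP-high cells (-0.19 ± 0.024, adjusted p = 7e-14). TUBGCP4 on the opposite strand overlaps 28.8% of TP53BP1 exon bases and averaged 2371 counts, against 4132 for TP53BP1, so without a stated strand setting the TP53BP1 values are uncertain.

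Genes of break sensing and resection were lower with FX1 in 5 of 6 cases in GFP-low cells and in 6 of 6 in GFP-high cells. The shares of all genes that were lower were 34.3% and 34.6%. EXO1, the exonuclease of long-range resection, stood at 31.4, 33.5 and 31.4 CPM in GFP-low FX1 libraries, against 54.1, 57.8 and 59.5 in GFP-low DMSO libraries. In GFP-high cells EXO1 stood at 46.6, 43.5 and 49.1 CPM with FX1, against 76.6, 75.9 and 73.4 with DMSO. Its log2 changes were -0.83 ± 0.042 and -0.69 ± 0.038, with no overlap between treatments. BLM, the Bloom syndrome helicase that works with EXO1, changed by -0.72 ± 0.039 in GFP-low and -0.74 ± 0.036 in GFP-high cells. The nuclease gene MRE11 changed by -0.50 ± 0.025 and -0.42 ± 0.024, and RBBP8, which encodes its cofactor CtIP, by -0.38 ± 0.025 and -0.33 ± 0.024. NBN, the regulatory subunit of the complex, stood at 138, 135 and 141 CPM in GFP-low FX1 libraries, against 172, 175 and 175 in GFP-low DMSO libraries. In GFP-high cells NBN stood at 211, 209 and 208 CPM with FX1, against 223, 218 and 218 with DMSO. The log2 change of NBN was -0.33 ± 0.022 in GFP-low cells and -0.07 ± 0.020 in GFP-high cells. The GFP-high call of NBN did not hold in every setting tried, also with the GC and length settings set aside. RAD50 changed by -0.13 ± 0.065 in GFP-low cells (adjusted p = 0.059) and -0.22 ± 0.067 in GFP-high cells (adjusted p = 0.0023), where it did not pass without GFP-high FX1 replicate 1 (-0.13).

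**Figure D2:**
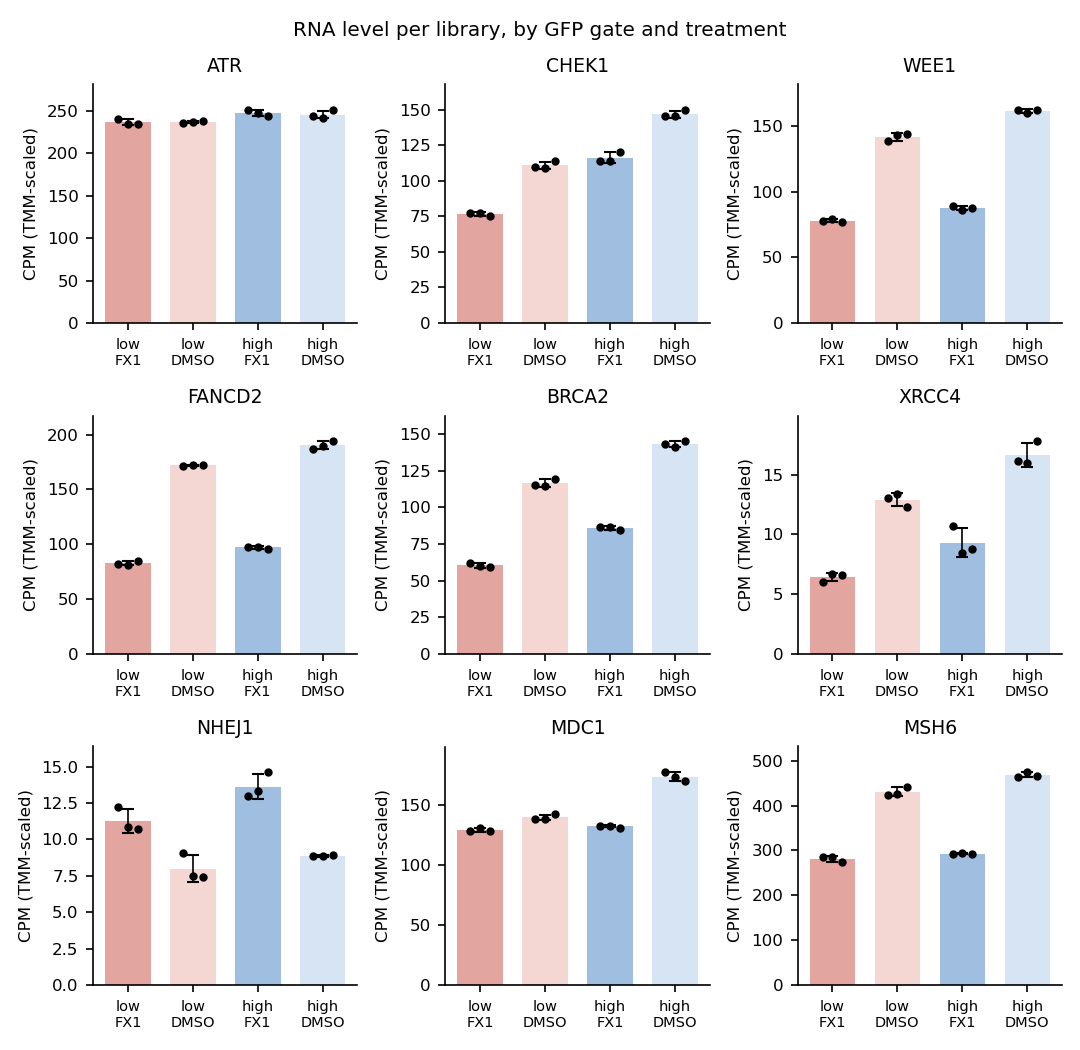
TMM-scaled CPM (y axis, from 0) of single libraries for ATR, CHEK1, WEE1, FANCD2, BRCA2, XRCC4, NHEJ1, MDC1 and MSH6 in GFP-low FX1, GFP-low DMSO, GFP-high FX1 and GFP-high DMSO (x axis), as points, with bars for the group mean and whiskers for the SD. ATR points lie between 234 and 251 CPM and overlap between treatments in each gate, whereas WEE1 points with FX1 lie between 76.9 and 89.4 CPM and those with DMSO between 138 and 162 CPM.

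In homologous recombination 7 of 10 genes were lower and 1 higher in GFP-low cells, and 8 lower and 1 higher in GFP-high cells. Of all genes 34.3% were lower and 33.7% higher in GFP-low cells, and 34.6% and 33.8% in GFP-high cells. BRCA2, which loads the recombinase on resected DNA, stood at 62.1, 60.2 and 59.1 CPM in GFP-low FX1 libraries, against 115, 114 and 119 in GFP-low DMSO libraries. In GFP-high cells BRCA2 stood at 86.4, 86.9 and 84.3 CPM with FX1, against 143, 141 and 145 with DMSO. Its log2 changes of -0.94 ± 0.029 and -0.74 ± 0.027 were the largest falls of the recombination genes in GFP-low cells and next to that of XRCC2 in GFP-high cells. BARD1, the obligate partner of BRCA1 in a ubiquitin ligase, stood at 46.3, 45.3 and 46.9 CPM in GFP-low FX1 libraries, against 81.4, 78.4 and 80.6 in GFP-low DMSO libraries. In GFP-high cells it stood at 66.1, 62.7 and 64.4 CPM with FX1, against 91.1, 91.4 and 92.1 with DMSO. BARD1 changed by -0.80 ± 0.035 and -0.51 ± 0.032, and BRCA1 by -0.62 ± 0.025 and -0.55 ± 0.023.

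The paralogues of the recombinase did not share a direction. XRCC2 changed by -0.79 ± 0.046 in GFP-low and -0.79 ± 0.042 in GFP-high cells, and RAD51C by -0.38 ± 0.070 and -0.37 ± 0.065. RAD51D (chromosome 17, 35092221 to 35121522, minus strand), which forms a complex with both, stood at 54.5, 53.8 and 55.2 CPM in GFP-low FX1 libraries, against 46.3, 45.7 and 45.9 in GFP-low DMSO libraries. In GFP-high cells RAD51D stood at 45.5, 45.5 and 44.3 CPM with FX1, against 40.0, 42.0 and 43.1 with DMSO. All FX1 libraries were above all DMSO libraries of their gate, at 0.24 ± 0.039 (adjusted p = 7.2e-09) and 0.11 ± 0.041 (adjusted p = 0.012), and the GFP-high call was lost with the GC and length trend removed and without GFP-high DMSO replicate 1 (0.09). XRCC3, the other paralogue, changed by -0.07 ± 0.051 (adjusted p = 0.26) and -0.14 ± 0.056 (adjusted p = 0.023), and 76.7% of its exon bases overlap KLC1 on the opposite strand. Its GFP-high call was lost without GFP-high FX1 replicate 1 (-0.08) or GFP-high DMSO replicate 1 (-0.11) or 3 (-0.12). With the GC and length trend removed XRCC3 was called lower in GFP-low cells too, at -0.51. The translocase gene RAD54L, of which LRRC41 on the opposite strand overlaps 19.9% of exon bases, changed by -0.47 ± 0.049 and -0.58 ± 0.047, the annealing factor gene RAD52 by -0.23 ± 0.046 and -0.43 ± 0.048, and PALB2, the bridge between BRCA1 and BRCA2, by -0.08 ± 0.039 (adjusted p = 0.068) and -0.07 ± 0.037 (adjusted p = 0.064).

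In the Fanconi anaemia pathway, which repairs interstrand crosslinks, 7 of 9 genes were lower in each gate, against 34.3% and 34.6% of all genes. FANCD2 (chromosome 3, 10026370 to 10101932, plus strand), a subunit of the clamp that the pathway ubiquitinates, stood at 82.3, 81.6 and 85.1 CPM in GFP-low FX1 libraries, against 172, 172 and 172 in GFP-low DMSO libraries. In GFP-high cells FANCD2 stood at 97.9, 97.5 and 95.8 CPM with FX1, against 187, 190 and 194 with DMSO. These were the largest falls of the 41 genes, at -1.05 ± 0.025 (adjusted p = 3.6e-111) and -0.97 ± 0.024 (adjusted p = 9.6e-107). Its clamp partner FANCI changed by -0.68 ± 0.024 in GFP-low and -0.74 ± 0.023 in GFP-high cells, and the anchoring translocase gene FANCM by -0.70 ± 0.044 and -0.57 ± 0.041. The core complex genes among the 41 had changes nearer zero than those of FANCD2, FANCI and FANCM. FANCA changed by -0.12 ± 0.027 and -0.25 ± 0.028, FANCG by -0.20 ± 0.060 and -0.44 ± 0.062, FANCE by -0.26 ± 0.066 and -0.29 ± 0.070, and FANCC by -0.34 ± 0.061 and -0.17 ± 0.065. FANCF, the adaptor of the core complex, stood at 12.4, 13.0 and 12.9 CPM in GFP-low FX1 libraries, against 12.8, 14 and 14.3 in GFP-low DMSO libraries. In GFP-high cells FANCF stood at 15, 14.2 and 13.9 CPM with FX1, against 13.4, 11.5 and 12.4 with DMSO. FANCF was higher in GFP-high cells, by 0.22 ± 0.076 (adjusted p = 0.0068), and changed by -0.11 ± 0.076 in GFP-low cells (adjusted p = 0.2). The GFP-high calls were lost without GFP-high DMSO replicate 2 for FANCF (0.16), and for FANCC without that library (-0.14), GFP-high DMSO replicate 3 (-0.12) or GFP-high FX1 replicate 1 (-0.15). FANCL, the ubiquitin ligase of the complex, changed by -0.14 ± 0.066 (adjusted p = 0.051) and 0.04 ± 0.064 (adjusted p = 0.6). Once the trend on GC content and length was taken out, FANCL was higher in both gates, at 0.15 (adjusted p = 0.042) and 0.18 (adjusted p = 0.0081), whereas without GFP-high DMSO replicate 1, 2 or 3 it was lower in GFP-low cells, at -0.18 or -0.19, and without GFP-low DMSO replicate 2 at -0.18. VRK2 on the opposite strand overlaps 18.7% of FANCL exon bases, and ZNF276 likewise 23.6% of those of FANCA.

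End-joining genes spanned nearly the whole range of the 41. XRCC4 (chromosome 5, 83077498 to 83353787, plus strand), the partner that stabilises DNA ligase IV, stood at 6.04, 6.69 and 6.61 CPM in GFP-low FX1 libraries, against 13.1, 13.4 and 12.3 in GFP-low DMSO libraries. In GFP-high cells XRCC4 stood at 10.7, 8.47 and 8.77 CPM with FX1, against 16.2, 16.0 and 17.8 with DMSO. It fell by 1.02 ± 0.089 (adjusted p = 8.2e-24) and 0.83 ± 0.080 (adjusted p = 2.6e-20) on the log2 scale. NHEJ1 (chromosome 2, 219069357 to 219160865, minus strand), which binds XRCC4 in the ligation complex, went the opposite way. It stood at 12.3, 10.8 and 10.7 CPM in GFP-low FX1 libraries, against 9.05, 7.52 and 7.44 in GFP-low DMSO libraries. In GFP-high cells NHEJ1 stood at 13.0, 13.3 and 14.6 CPM with FX1, against 8.84, 8.86 and 8.92 with DMSO. All FX1 libraries were above all DMSO libraries of their gate, with rises of 0.51 ± 0.087 (adjusted p = 4.6e-08) and 0.62 ± 0.084 (adjusted p = 9.6e-12), and the direction held under every setting tried except that the 1.5-fold floor was not passed. A readthrough gene on the same strand overlaps 22.4% of NHEJ1 exon bases and averaged 22.8 counts, against 319 for NHEJ1.

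LIG4, the ligase itself, stood at 34.8, 35.1 and 35.5 CPM in GFP-low FX1 libraries, against 36.1, 34.7 and 36.4 in GFP-low DMSO libraries, and did not pass (-0.02 ± 0.046, adjusted p = 0.66). In GFP-high cells LIG4 changed by 0.07 ± 0.042 (adjusted p = 0.14). The LIG4 result moved with the setting: with the GC and length trend removed it was higher in GFP-low cells, at 0.24 (adjusted p = 1e-06), and without GFP-high DMSO replicate 3 it was higher in GFP-high cells, at 0.11. PRKDC, at 1999 to 2007 CPM in GFP-low FX1, against 2795 to 2824 in GFP-low DMSO, and 2288 to 2300 in GFP-high FX1, against 3110 to 3128 in GFP-high DMSO, changed by -0.49 ± 0.011 and -0.44 ± 0.010. Of the Ku genes, XRCC5 was lower in both gates, at -0.22 ± 0.015 in GFP-low and -0.19 ± 0.014 in GFP-high cells. XRCC6 changed by 0.00 ± 0.016 in GFP-low cells (adjusted p = 0.94), or -0.05 and called lower after removal of the GC and length trend, and by -0.05 ± 0.015 in GFP-high cells (adjusted p = 0.00095). The GFP-high call of XRCC6 did not hold in every setting tried, also with the GC and length settings set aside. Both mismatch repair genes were lower in both gates, MSH6 by -0.61 ± 0.016 and -0.68 ± 0.016 and PMS2, a subunit of the MutL endonuclease, by -0.24 ± 0.029 and -0.41 ± 0.030. MSH6 shares 33.2% of its exon bases with FBXO11 on the opposite strand, which averaged 4030.5 counts, against 10771 for MSH6, and is uncertain to that extent. PMS2 is uncertain because it has near-identical copies, of which PMS2P1 averaged 1664.5 and PMS2CL 838 counts.

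Other genes of these pathways, 145 in all and 144 tested, were more often lower than higher with FX1. In GFP-low cells 77 were lower and 45 higher (median -0.17), and in GFP-high cells 81 were lower and 37 higher (median -0.18). Of all genes 34.3% were lower and 33.7% higher in GFP-low cells, and 34.6% and 33.8% in GFP-high cells. Other mismatch repair genes, which include replication factors, were lower in 14 of 16 cases in GFP-low and 15 of 16 in GFP-high cells, with 1 higher in each. Among them DNA ligase I, LIG1, changed by -0.81 ± 0.033 and -1.15 ± 0.033. Other recombination genes were lower in 19 and higher in 9 of 30 in GFP-low cells, and lower in 20 and higher in 4 in GFP-high cells, with RMI2, of the BLM complex, at -1.16 ± 0.071 and -1.26 ± 0.069. Other checkpoint genes were lower in 16 of 31 in each gate and higher in 8 in GFP-low and 9 in GFP-high cells, with ABRAXAS1, of the BRCA1 A complex, at -1.42 ± 0.053 and -1.17 ± 0.049, and the phosphatase gene CDC25C at -1.07 ± 0.085 and -1.12 ± 0.081. Other Fanconi genes were lower in 10 and higher in 5 of 16 in GFP-low cells, and lower in 9 and higher in 4 in GFP-high cells. FANCB of the core complex changed by -1.21 ± 0.065 and -0.85 ± 0.059, while CENPX, a partner of FANCM, rose by 0.94 ± 0.054 and 1.03 ± 0.060.

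Of the 13 other end-joining genes 8 were higher and 4 lower in GFP-low cells, and 5 were higher and 4 lower in GFP-high cells. The higher genes were 61.5% and 38.5%, against 33.7% and 33.8% of all genes. The lower genes were 30.8% in each gate, near the 34.3% and 34.6% of all genes. PAXX, a paralogue of XRCC4, averaged 15.1 ± 0.826 CPM in GFP-low FX1 and 8.26 ± 0.696 in GFP-low DMSO (SD, n = 3 each), a rise of 0.87 ± 0.084, and rose by 0.53 ± 0.096 in GFP-high cells. Base and nucleotide excision repair genes were near the shares of all genes in GFP-low cells, at 14 lower and 14 higher of 38 (36.8% each). In GFP-high cells 17 of them were lower (44.7%) and 14 higher (36.8%), against 34.6% and 33.8% of all genes. DDB2, a damage sensor of nucleotide excision repair and a known target of p53, averaged 25.6 ± 1.09 CPM in GFP-low FX1 and 95.5 ± 3.25 in GFP-low DMSO, and 20 ± 1.5 in GFP-high FX1 and 97.2 ± 2.37 in GFP-high DMSO. It fell by 1.90 ± 0.039 and 2.28 ± 0.041 on the log2 scale, more than any of the 41.

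Proliferation genes moved with the 41, many of which are known to be transcribed in S phase. Of 31 G1/S genes 26 were lower and 3 higher in GFP-low cells, and 27 lower and 3 higher in GFP-high cells. Of 26 G2/M genes 24 were lower and 0 higher in GFP-low cells, and 23 lower and 1 higher in GFP-high cells. Among all genes 34.3% were lower and 33.7% higher in GFP-low cells, and 34.6% and 33.8% in GFP-high cells. MKI67, a marker of cycling cells, changed by -0.82 ± 0.013 and -1.03 ± 0.013, and MCM5 of the replicative helicase rose by 0.83 ± 0.017 in GFP-low cells. Summed G2/M levels were 2331 to 2362 CPM in GFP-low FX1 and 3849 to 3907 in GFP-low DMSO, and 3049 to 3071 in GFP-high FX1 and 5138 to 5197 in GFP-high DMSO. Summed G1/S levels were 2868 to 2914 CPM in GFP-low FX1 and 3722 to 3764 in GFP-low DMSO, and 3239 to 3276 in GFP-high FX1 and 4393 to 4418 in GFP-high DMSO. B cell markers summed to 3726 to 3742 CPM in GFP-low FX1 and 5556 to 5584 in GFP-low DMSO, and in GFP-high cells to 4277 to 4309 with FX1 and 6602 to 6667 with DMSO. Of these 10 genes 6 were lower and 2 higher with FX1 in GFP-low cells, and 5 lower and 4 higher in GFP-high cells. Plasma cell markers summed to 204 to 208.5 CPM in GFP-low FX1 and 156.5 to 161 in GFP-low DMSO, and in GFP-high cells to 172 to 178 with FX1 and 136 to 139 with DMSO, and of the 4 of 5 tested 1 was higher in each gate while 3 were lower in GFP-low and 2 in GFP-high cells. Germinal centre B cell markers summed to 867 to 877 CPM in GFP-low FX1 and 1456 to 1462 in GFP-low DMSO, and in GFP-high cells to 1134 to 1142 with FX1 and 1632 to 1647 with DMSO. Of these 8 genes 5 were lower and 2 higher with FX1 in GFP-low cells, and 5 lower and 3 higher in GFP-high cells. The 11 T and NK cell markers summed to 5.14 to 7.17 CPM in GFP-low FX1 and 17.1 to 19.1 in GFP-low DMSO, and in GFP-high cells to 8.64 to 8.83 with FX1 and 26.7 to 27.0 with DMSO, mostly from LCK. The part of cell cycle phase, or of these marker lists, in the lower levels of the 41 genes was not tested.

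**Figure D3:**
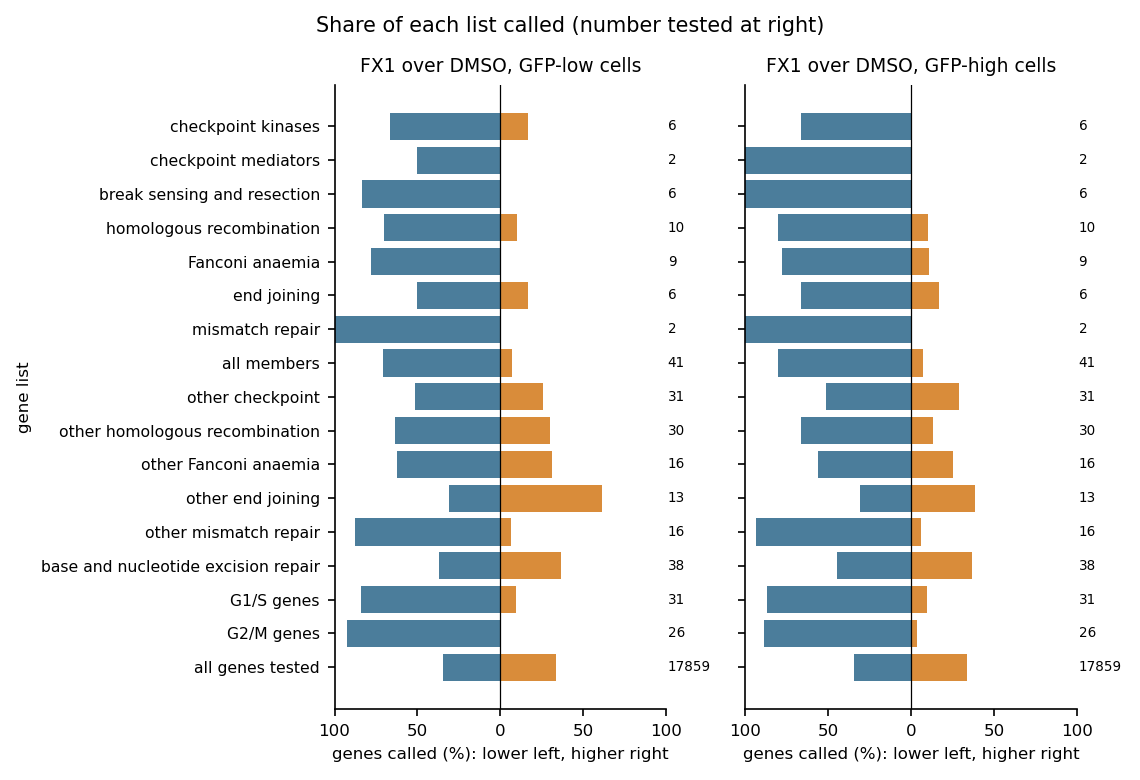
Share of tested genes of each list that were lower (left of zero) or higher (right of zero) with FX1, as percent, in GFP-low and GFP-high cells, with the number tested at the right. Most bars reach farther to the left than to the right, among them the G2/M list, with 24 of 26 lower in GFP-low cells, whereas other end joining has 8 of 13 higher in GFP-low cells.

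GFP-low cells had lower levels of most of these genes than GFP-high cells under either treatment. Under DMSO 26 of 41 were lower and 7 higher, against 24.4% and 21.7% of all genes, and the median log2 change was -0.19 where that of all genes was 0.03. Under FX1 26 were lower and 8 higher, against 26.7% and 30.2% of all genes, with a median of -0.19 where that of all genes was 0.08. Past the 1.5-fold floor there were 0 members under either treatment, against 1.11% of all genes under DMSO and 4.08% under FX1. The 23 genes lower in both comparisons included CHEK1, at -0.41 ± 0.026 under DMSO and -0.59 ± 0.027 under FX1, and NBN, at -0.33 ± 0.021 and -0.60 ± 0.021. The shares of all genes lower or higher in both comparisons were not counted. FANCA, FANCE, RAD51D and XRCC3 were higher in both, with XRCC3 at 0.29 ± 0.054 and 0.36 ± 0.052. TP53BP1 was lower under DMSO, at -0.07 ± 0.024 (adjusted p = 0.014), and higher under FX1, at 0.11 ± 0.023 (adjusted p = 1.3e-05). The calls of TP53BP1 and ATR under DMSO were lost without GFP-high DMSO replicate 3 or GFP-low DMSO replicate 1 or 2, with TP53BP1 at -0.06, -0.05 and -0.06 and ATR at -0.04, -0.04 and -0.05. ATR was lower in GFP-low cells by -0.05 under DMSO and -0.06 under FX1, and both turned to higher with the GC and length trend removed, at 0.07 and 0.19.

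The gate difference of a member moved with the GC content of its longest transcript. Over the 41 genes, which share the same libraries, Pearson's r was 0.601 and Spearman's rho 0.549 under DMSO, and 0.738 and 0.714 under FX1, and over all 17557 genes with a GC value rho was 0.313 and 0.520. Members higher in GFP-low cells under FX1 had a median GC content of 51.9%, and those lower 41%. With a smooth trend on GC content and length removed, 10 members were higher and 16 lower under FX1, against 27.4% and 21.4% of all genes in that setting, and 7 higher and 20 lower under DMSO, against 21.1% and 19.5%. The median of the 41 was then -0.04 under FX1 and -0.10 under DMSO, where that of all genes was 0.07 and 0.03. XRCC3 then did not pass in either comparison, at 0.00 under FX1 and 0.12 under DMSO, and TP53BP1 did not pass under DMSO, at -0.01. BLM, BRCA1, BRCA2, CHEK1, EXO1, NBN, PRKDC, RBBP8, XRCC2, XRCC5 and XRCC6 were lower in both comparisons in every setting tried but the fold floor, and RAD51D was higher in both. For the FX1 effects rho with GC content was 0.503 in GFP-low and 0.297 in GFP-high cells, and with the trend removed 31 members were lower and 5 higher in GFP-low cells, against 32.0% and 33.4% of all genes, and 33 lower and 3 higher in GFP-high cells, against 34.8% and 33.2%. The part of GC content in these differences beyond that removal was not tested, and the gate cannot be told apart from anything else that differed between the sorted cells or their library preparations.

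**Figure D4:**
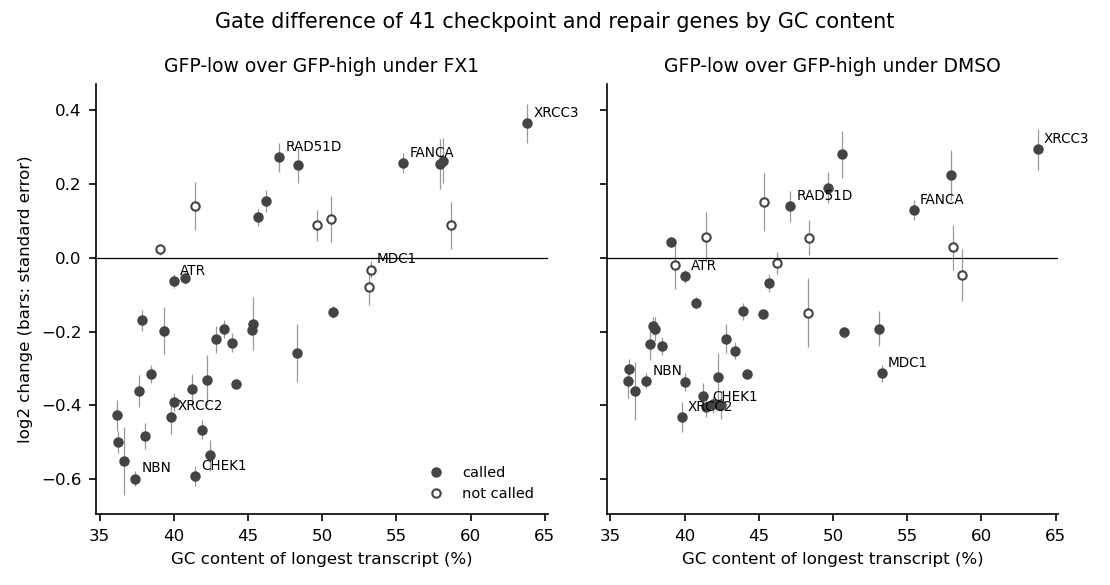
Log2 change of GFP-low over GFP-high cells (y axis, bars are standard errors) against GC content of the longest transcript in percent (x axis) for the 41 genes, under FX1 and under DMSO. Genes of low GC content lie mostly below zero, and XRCC3, at 63.8% GC, is the highest point in both panels.

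The FX1 effect differed between gates for 16 of the 41 genes, by the interaction term of the same edgeR fit. It was higher in GFP-low than in GFP-high cells for 8, against 14.8% of all genes, and lower for 8, against 16.5%, and 0 passed the 1.5-fold floor (0.846% of all genes). The differences were small. MDC1 led the positive ones at 0.28 ± 0.033 (adjusted p = 4.4e-14), followed by FANCG at 0.23 ± 0.086, RAD52 at 0.20 ± 0.066, TP53BP1 at 0.18 ± 0.034 (adjusted p = 2.6e-06), PMS2 at 0.17 ± 0.042, FANCA at 0.13 ± 0.039, MSH6 at 0.07 ± 0.023 and XRCC6 at 0.06 ± 0.022. FANCF led the negative ones at -0.33 ± 0.107 (adjusted p = 0.01), followed by BARD1 at -0.29 ± 0.047, NBN at -0.27 ± 0.029 (adjusted p = 1.4e-15), BRCA2 at -0.20 ± 0.040, CHEK1 at -0.19 ± 0.038 (adjusted p = 1.4e-05), EXO1 at -0.14 ± 0.056, FANCD2 at -0.09 ± 0.035 and PRKDC at -0.04 ± 0.015. For ATR the difference was -0.01 ± 0.026 (adjusted p = 0.77) and for NHEJ1 -0.11 ± 0.122 (adjusted p = 0.55).

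These counts moved when libraries were left out and when the GC and length trend was removed. Without GFP-high DMSO replicate 1, 2 or 3, 4, 3 and 3 members were higher and 14, 16 and 17 lower, and the median difference of all genes moved by -0.0479, -0.0466 and -0.0468. Over all libraries left out in turn, 5167 to 5432 of all genes were called in either direction. The shares of all genes by direction in these fits were not counted. Leaving out GFP-low DMSO replicate 2 or GFP-low FX1 replicate 2 gave 5 higher, and leaving out GFP-low FX1 replicate 1 gave 5 lower. With GC content and length taken into account, the difference for NBN was -0.04, for BARD1 -0.09, for CHEK1 -0.09 and for BRCA2 0.06, and none of these 4 passed, while MDC1 stood at 0.21, TP53BP1 at 0.19 and FANCF at -0.31. ATR stood at 0.12 (adjusted p = 0.00015), ATM at 0.13, WEE1 at 0.22, LIG4 at 0.18 and MRE11 at 0.10, each then called higher, so that 11 members were higher and 2 lower, against 13.7% and 14.1% of all genes. ATR was called lower, at -0.07, without GFP-high DMSO replicate 3. MDC1, TP53BP1 and FANCF were the 3 members called in the same direction in every setting except the fold floor.

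**Figure D5:**
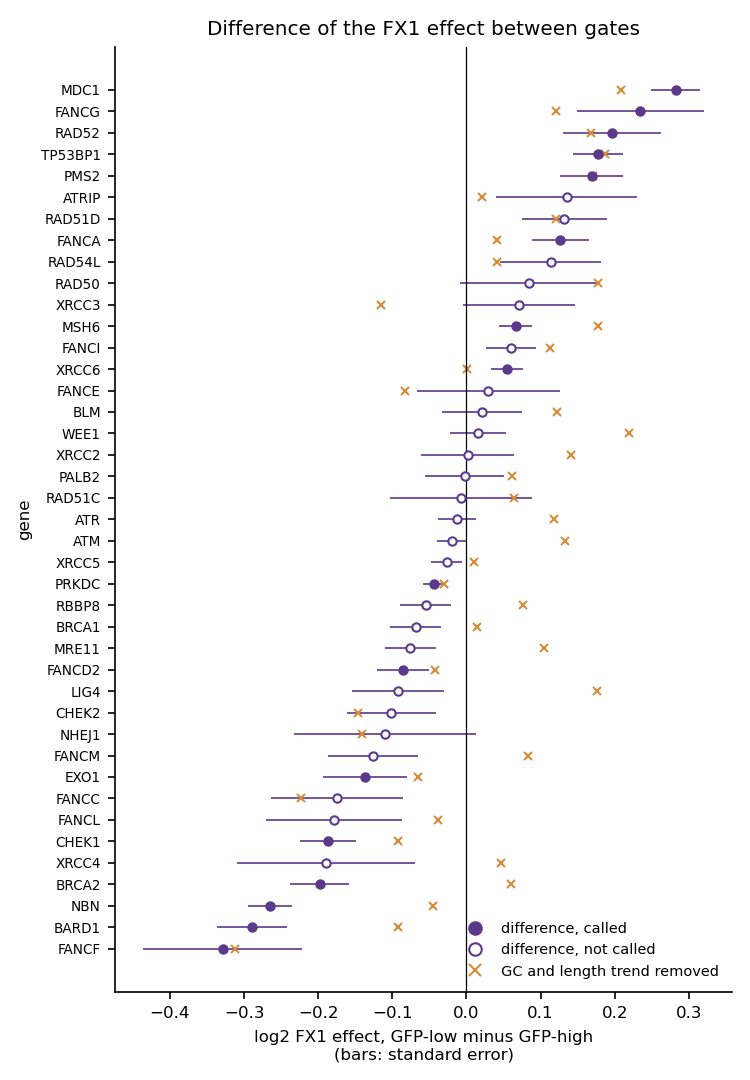
FX1 effect in GFP-low minus that in GFP-high cells (x axis, log2, bars are standard errors) for the 41 genes in order, with the value after removal of the GC and length trend beside it. MDC1, at 0.28, and FANCF, at -0.33, are the extremes, and NBN moves from -0.27 to -0.04 when the trend is removed.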

How the data were processed

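Total RNA of 12 Raji libraries (4 groups of 3, 24 h) was cleared of ribosomal RNA with a KAPA HyperPrep RiboErase kit, per the labels' protocols. FastQC, STAR, hg38, featureCounts of Subread and R 4.2.1 are named in the submitters' processing notes. Values were deposited as raw counts for each gene, exons combined, and the exon length beside them is the authors' value, per the file headers. Versions, annotation release and strand setting are not given in the sources used here, so overlapping genes and near-identical copies are uncertain. Of 60710 lines 3 formed a broken record and were left out, and 0 count columns lacked a sample. A symbol was found for 60506 of the 60707 genes and a type for 58439.

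The test was edgeR 4.0.16 under R 4.3.3. After filterByExpr, 17859 genes were scaled by TMM, and a robust quasi-likelihood model with 1 coefficient per group was fitted over the 12 libraries (8 residual degrees of freedom, common biological coefficient of variation 1.67%). P-values were adjusted by Benjamini-Hochberg over all genes, with calls at 0.05. Log2 changes carry standard errors, and CPM are TMM-scaled. Reads had no molecular identifiers and are not independent molecules. Other settings were glmTreat with a 1.5-fold floor, DESeq2 1.42.0, DESeq2 size factors in edgeR, no filter, a filter of 50 counts in 3 libraries, fits to the compared groups alone, a replicate block, scaling that ignored the mitochondrial genome and any gene holding over 1% of a library, leaving out each library, and removal of a smooth trend on GC content and length of the longest GENCODE transcript (mgcv 1.9.3, 17557 genes). The scripts were checked on simulated data. Promoters came from RefSeq GRCh38.p14, and members with no match are not shown.

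The 41 genes and all other lists were chosen with earlier results of these data known. All members are described by role. From other pathway lists at most 2 called genes with the largest change per comparison are named, and from context and marker lists at most 2 with the lowest p, besides BCL6, SMARCA4 and markers at 0. Some genes that this rule takes are not reported here.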

Additional observations from a re-analysis of the deposited data

Results flagged for a closer look

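For 16 of the 41 genes the FX1 effect differed between gates by the interaction term of the edgeR fit (adjusted p under 0.05). Of the 41, 19.5% were higher and 19.5% lower, not far from the 14.8% and 16.5% of all genes. The effect is given here as the log2 effect in GFP-low minus that in GFP-high cells. It was lower in GFP-low cells for FANCF (-0.329), BARD1 (-0.289), NBN (-0.265), BRCA2 (-0.198), CHEK1 (-0.187), EXO1 (-0.137), FANCD2 (-0.0855) and PRKDC (-0.0432). It was higher in GFP-low cells for MDC1 (0.282), FANCG (0.235), RAD52 (0.196), TP53BP1 (0.178), PMS2 (0.169), FANCA (0.127), MSH6 (0.0664) and XRCC6 (0.0551). Both mediators of the break response and both mismatch repair genes were among those higher, and none of the 16 passed the 1.5-fold floor. With the GC and length trend removed, MDC1, TP53BP1, PMS2, RAD52, MSH6 and FANCF were called in the same direction, and the other 10 were not. Leaving out single libraries lost the calls of PMS2, RAD52 and MSH6, the last at 0.0095 without GFP-high DMSO replicate 2. The calls of EXO1, FANCA, FANCD2, FANCG, PRKDC and XRCC6 were also lost when single libraries were left out. Those of BARD1, BRCA2, CHEK1 and NBN held in every setting but the fold floor and the removal of the GC and length trend. MDC1, TP53BP1 and FANCF held in every setting but the fold floor.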

How the results depend on the processing

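Against the 1.5-fold floor 3606 genes passed for FX1 in GFP-low and 3674 in GFP-high cells, 199 and 728 for the gate under DMSO and FX1, and 151 for the difference in FX1 effect. Members higher and lower were then 0 and 10, 0 and 9, 0 and 0, 0 and 0, and 0 and 0. With the GC and length trend removed, with or without the replicate block, 5 members were higher with FX1 in GFP-low cells and 16 lower in GFP-low cells under FX1. For the difference of the FX1 effect, lower members were then 2, or 1 with the replicate block. Higher members of that difference were 4 by DESeq2, 5 with no filter and 3 without mitochondrial and top genes in scaling, and lower members 5 with no filter, 5 at 50 counts and 15 without those genes. Leaving out 1 library gave, higher and lower, 3 to 3 and 29 to 36 for FX1 in GFP-low, 2 to 4 and 30 to 34 for FX1 in GFP-high cells, 6 to 8 and 24 to 26 for the gate under DMSO, 8 to 9 and 25 to 28 under FX1, and 3 to 8 and 5 to 17 for the difference. All genes called were then 11440 to 12293, 11475 to 12379, 7451 to 8275, 9387 to 10205 and 5167 to 5432.

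Single genes turned direction mostly with the GC and length trend removed (with the replicate block in parentheses). For FX1 in GFP-low cells these were ATR at 0.121 (0.120), ATRIP -0.113 (-0.104), FANCL 0.146 (0.144), LIG4 0.240 (0.241) and XRCC6 -0.0502 (-0.0508), the last also at -0.0403 without mitochondrial and top genes in scaling and at -0.0436, -0.0435 and -0.0428 without GFP-high DMSO replicate 1, 2 or 3, within a range up to 0.0316 over all libraries left out. For the gate they were ATR at 0.0722 (0.0718) and MSH6 at 0.000534 (0.000895) under DMSO, and ATR 0.190 (0.189), FANCL 0.0744 (0.0729), MSH6 0.177 (0.177) and WEE1 0.170 (0.170) under FX1. For the difference they were ATM at 0.133 (0.133), ATR 0.118 (0.117), BRCA2 0.0604 (0.0601), LIG4 0.176 (0.178) and MRE11 0.104 (0.104), and XRCC6 with the trend removed and the block added (-0.000775). No pairing of the libraries by replicate number was seen in the counts, which does not show that the numbers share no culture or sort. Same-numbered libraries deviated together with r between -0.0117 and 0.0172 over 18 pairs, and 3 of 12 correlated best with their own number. The replicate block by itself left 202 of 205 single results on the same side, with 1 gained and 2 lost, and gave 6 lower members for the difference. Apart from the construction of the floor, the cause of these shifts was not tested. Standard errors of the FX1 effects of XRCC4, among the members of lowest counts, were 0.089 in GFP-low and 0.080 in GFP-high cells, and changes of the size of such an error were not detectable.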
